A study of Mus musculus with 6 samples.

Results

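Foxc1, Foxc2, Foxd1, Tbx18, Zic1, Zic4, Tfap2b, Prrx1 and Twist1 are transcription factors of the mesenchyme that surrounds the developing brain, and here their messenger RNA was followed in adult mouse meninges. The 9 genes were taken by symbol from the 31053 genes listed for each library, 1 row for each symbol, and were compared among mesenchymal (fibroblast-like) and mural cells. The study prepared single cells from adult C57BL6 mice of both sexes by 2 dissections and measured them with 10x Genomics single-cell RNA sequencing. The cortical surface-associated (CSA) dissection, labelled brain, gave 4 libraries and holds the leptomeninges, which are the arachnoid and pia. The bone-associated (BA) dissection took tissue from the inside of the skull, labelled dura/skull, gave 2 libraries and holds the dura. Each library pooled several unperfused wild-type mice, so spread between single mice cannot be seen, and cells were sorted as DRAQ5-positive and propidium iodide-negative. p-values measure only the spread between these libraries, which the test estimates partly or wholly from all genes together.

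Meningeal fibroblasts descend from neural crest over the forebrain and from mesoderm further back, and the meninges send signals that both the cortex beneath and the skull bone above need to form. Forkhead factors of the Foxc group are required for that: mice without Foxc1 fail to form normal meninges and calvarial bone. Pericytes and vascular smooth muscle cells (VSMCs) are the mural cells that wrap capillaries and larger vessels, and those of the forebrain also come largely from neural crest. A transcription factor binds DNA and sets which genes a cell uses, and its own messenger RNA is often sparse, so counts of these genes are low in any single cell.

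The genes lie on several chromosomes of GRCm38 (mm10). Foxc1 (chr13:31806633-31812476), Foxd1 (chr13:98354242-98359305) and Foxc2 (chr8:121116171-121118895) have 1 exon each in GENCODE. Zic1 (chr9:91358058-91365810, minus strand) and Zic4 (chr9:91362413-91389348, plus strand) are neighbours that overlap on opposite strands, so reads from the shared stretch can be told apart only if the counting used strand. Prrx1 (chr1:163245119-163313710) overlaps the antisense gene Gm20471 and the same-strand gene Gm26523, and Foxc2 overlaps the same-strand gene Gm20388, so reads that fit both genes could have been left uncounted. Tbx18 (chr9:87702800-87731260), Tfap2b (chr1:19208914-19238576) and Twist1 (chr12:33957671-33959829) complete the set.

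Promoters are shown for the 6 genes whose level differed most firmly between leptomeningeal and dural cells, because these are the genes that moved together in each direction. Each sequence is the 250 bases before the RefSeq start of the gene in GRCm38.p6, 5′ to 3′ on the gene's strand, and capitals mark matches on either strand to any of 6 motifs, overlapping matches included. The windows are Zic1 (chr9:91365769-91366018, minus strand), Zic4 (chr9:91368722-91368971, plus strand), Tbx18 (chr9:87731261-87731510, minus strand), Tfap2b (chr1:19211804-19212053, plus strand), Prrx1 (chr1:163313651-163313900, minus strand) and Twist1 (chr12:33957421-33957670, plus strand).
Zic1: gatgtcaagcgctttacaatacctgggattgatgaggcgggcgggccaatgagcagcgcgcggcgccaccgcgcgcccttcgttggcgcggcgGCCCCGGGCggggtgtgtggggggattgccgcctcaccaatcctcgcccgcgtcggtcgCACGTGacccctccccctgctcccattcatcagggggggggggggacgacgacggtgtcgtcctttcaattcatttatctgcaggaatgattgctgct
Zic4: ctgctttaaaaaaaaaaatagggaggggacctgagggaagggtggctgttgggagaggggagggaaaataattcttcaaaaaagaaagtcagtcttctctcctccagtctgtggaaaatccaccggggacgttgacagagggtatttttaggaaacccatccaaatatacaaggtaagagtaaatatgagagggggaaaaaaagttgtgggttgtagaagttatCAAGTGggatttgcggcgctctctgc
Tbx18: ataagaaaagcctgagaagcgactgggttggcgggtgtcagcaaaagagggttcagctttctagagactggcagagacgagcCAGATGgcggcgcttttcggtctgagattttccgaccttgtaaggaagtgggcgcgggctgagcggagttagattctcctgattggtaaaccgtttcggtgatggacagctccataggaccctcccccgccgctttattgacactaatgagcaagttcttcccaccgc
Tfap2b: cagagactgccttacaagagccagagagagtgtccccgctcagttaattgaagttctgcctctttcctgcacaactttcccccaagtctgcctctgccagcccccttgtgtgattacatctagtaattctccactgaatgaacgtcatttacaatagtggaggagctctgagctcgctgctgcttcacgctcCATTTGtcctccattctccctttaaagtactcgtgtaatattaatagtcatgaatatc
Prrx1: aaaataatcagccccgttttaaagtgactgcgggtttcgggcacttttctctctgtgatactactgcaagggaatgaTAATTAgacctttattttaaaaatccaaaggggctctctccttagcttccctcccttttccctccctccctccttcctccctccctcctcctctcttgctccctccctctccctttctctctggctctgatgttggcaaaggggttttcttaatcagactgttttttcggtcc
Twist1: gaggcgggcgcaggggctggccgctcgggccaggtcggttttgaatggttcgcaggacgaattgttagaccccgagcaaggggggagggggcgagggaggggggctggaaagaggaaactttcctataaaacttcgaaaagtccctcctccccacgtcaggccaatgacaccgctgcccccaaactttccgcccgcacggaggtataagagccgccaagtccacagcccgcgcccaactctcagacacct

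The RefSeq starts of Zic1 and Zic4 face away from each other across 3204 bases. Promoters of 8 of the 9 genes were searched, all but Foxc2. The E-box CANNTG was found in 5 of them against 66.2% of 32544 mouse promoters of the same length, the AP-2 letters GCCNNNGGC in 2 (Foxc1 and Zic1) against 13.8%, and the homeobox core TAATTA in 1 (Prrx1) against 4.84%. No window held the forkhead letters TGTTTAC (in 3.17% of promoters), the T-box letters AGGTGTGA (in 1.12%) or the Zic letters CAGCAGG (in 8.47%). Such matches describe the letters of these windows and not binding.

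After filtering, 8680 cells remained, 739 to 2452 per library, with a median of 5453 to 9525 UMIs (unique molecular identifiers, each counting 1 captured RNA molecule). Hemoglobin took 84.6% and 71.9% of all UMIs in cortical surface libraries 3 and 4, and under 1% in the others, and libraries shared 0 to 9 barcodes in any pair. Clusters were built without the 9 genes and named from fixed markers. Mesenchymal-like cells numbered 266 in the cortical surface libraries, called leptomeningeal here, and 282 in the bone-associated ones, called dural. These names follow the dissection. Of the dural cells, 90 formed an Apod-led cluster, and whether these are dural was not tested. Pericyte-like cells numbered 233 at the cortical surface and 75 in the bone-associated libraries. VSMC-like cells numbered 263 and 269, with no VSMC-like cell in cortical surface libraries 3 and 4. The labels held for Pdgfra, a gene that the clustering did not use. Pdgfra stood at 296 to 584 UMIs per 1000000 UMIs (CPM) in leptomeningeal and 150.1 to 251 in dural cells. It was at 0 in all 6 pericyte-like sums and reached at most 1.46 in VSMC-like sums. Pdgfrb, also unused there, was found in all 3 classes, so its presence does not tell them apart. Levels of Col1a1, likewise unused, are not given here, so this check rests on Pdgfra alone.

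Leptomeningeal and dural cells carried all 9 factors but in different proportion. Tbx18, Zic1, Zic4 and Tfap2b were higher in leptomeningeal cells and Prrx1 and Twist1 in dural cells, by about 2.76-fold to 6.70-fold, and Foxc1, Foxc2 and Foxd1 did not reach the call. Levels are UMIs of the gene per 1000000 UMIs of all cells of a class in a library. A call needed an adjusted p under 0.05 together with a change of at least 1.3 on the log2 scale, either way, in edgeR's quasi-likelihood test. All 9 passed the filter on low values in both groups. For all 9 the leptomeningeal and dural libraries also lay apart, called or not. The share of all tested genes that lie apart is not given here. Lying apart, in this and the later comparisons, is therefore a description and no result about the factors. 4 of 9 were called higher in leptomeningeal cells, where 5.79% of 9530 tested genes were, and 2 higher in dural cells, where 9.03% were. The 9 genes were chosen with earlier results of these data known. Counts set against the share of all genes, here and below, therefore describe the set and do not test it.

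Among the factors higher in leptomeningeal cells, Tbx18, a T-box repressor that marks mural and other mesenchymal cells in many organs, stood at 263, 220.0, 236 and 265 CPM in the 4 leptomeningeal libraries (246 ± 21.9, SD, n = 4). The 2 dural libraries had 45.7 and 33.9 CPM (39.8 ± 8.31, SD, n = 2). Every leptomeningeal library lay above both dural ones (log2 fold change 2.75, SE 0.31, adjusted p = 1.63e-07), and the value was 2.12 with cells thinned to 1500 UMIs. Tfap2b, an AP-2 factor of neural crest derivatives, was at 183, 145, 174 and 148 CPM in leptomeningeal and at 34.3 and 24.6 CPM in dural libraries. Its groups did not overlap either (log2 fold change 2.60, SE 0.32, adjusted p = 7.36e-07).

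Zic1 and Zic4 encode zinc-finger factors best known from the developing cerebellum and dorsal neural tube. Zic1 reached 905, 595, 561 and 599 CPM in leptomeningeal libraries, with library 1 far above the other 3, and 278 and 235 CPM in dural libraries. Even the lowest leptomeningeal library had more than the highest dural one (log2 fold change 1.47, SE 0.27, adjusted p = 1.51e-04). For Zic4 the values were 222, 207, 229.9 and 210.1 CPM against 87.5 and 68.9 CPM. The 4 leptomeningeal values were close together and all above the dural pair (log2 fold change 1.58, SE 0.28, adjusted p = 1.22e-04). When each cell was thinned to 1500 UMIs, Zic1 fell under the fold limit (log2 fold change 1.20, adjusted p = 0.00417).

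The factors higher in dural cells are known from skeletal mesenchyme. Prrx1, a paired-related homeobox gene of limb and skull mesenchyme, was at 491 and 422 CPM in dural and 151, 129.9, 157 and 77.8 CPM in leptomeningeal libraries. The groups were separate, with leptomeningeal library 4 the lowest (log2 fold change -1.70, SE 0.26, adjusted p = 1.51e-05). Twist1, a basic helix-loop-helix factor whose loss in people fuses the skull sutures, was at 272 and 279 CPM in dural libraries, which hardly differed, and at 72.4, 84.0, 78.5 and 38.9 CPM in leptomeningeal libraries. Here too no library of one group reached the other (log2 fold change -1.85, SE 0.28, adjusted p = 1.18e-05).

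The 3 forkhead genes stayed under the call. Foxc1 was at 668, 493, 437 and 451 CPM in leptomeningeal and 384 and 279 CPM in dural libraries, groups that did not overlap but differed by less than the fold limit (log2 fold change 0.73, SE 0.26, adjusted p = 0.0461). Foxc2, its close relative known from lymphatic vessels and the somites, was in leptomeningeal cells at 19.8, 55.8, 16.8 and 23.3 CPM against 85.6 and 76.9 CPM in dural cells (log2 fold change -1.13, SE 0.37, adjusted p = 0.0290). Leptomeningeal library 2 stood apart from the other 3, and without it Foxc2 passed the call toward dural cells (log2 fold change -1.99, adjusted p = 3.85e-04). Foxd1, a forkhead gene of kidney stroma and its pericytes, was found in both, at 479, 468, 538 and 459 CPM in leptomeningeal and 734 and 665 CPM in dural libraries. Its dural values were above all leptomeningeal ones, yet the difference did not pass the test (log2 fold change -0.44, SE 0.24, adjusted p = 0.246).

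Depth and markers differed beside these values. The median was 7589 UMIs per leptomeningeal and 14796.5 per dural cell, and the summed level of the 8 mesenchymal markers, all above 0 in every sum, was 6549.7 to 11819 against 19569 to 26314 CPM. The 7 border macrophage markers summed to 32.1 to 656 CPM in leptomeningeal and 3.81 to 5.61 CPM in dural sums, while in border macrophage-like cells themselves no factor exceeded 30.3 CPM in any library. The 5 red blood cell markers summed to 1.53 to 110025 against 34.3 to 38.2 CPM, a part of the total to which CPM is scaled, and leaving hemoglobin out lost no call. The 6 markers on the astrocyte list summed to 1393 to 1559 against 106 to 129 CPM. Of these markers, Gja1 and Slc1a3 led in the cortical surface fibroblast cluster and in a bone-associated one led by Apod. VSMC markers summed to 62.2 to 273 and 679.8 to 763 CPM. The part of depth in the differences was tested only by thinning, and that of the other cells was not tested.

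**Figure D1:**
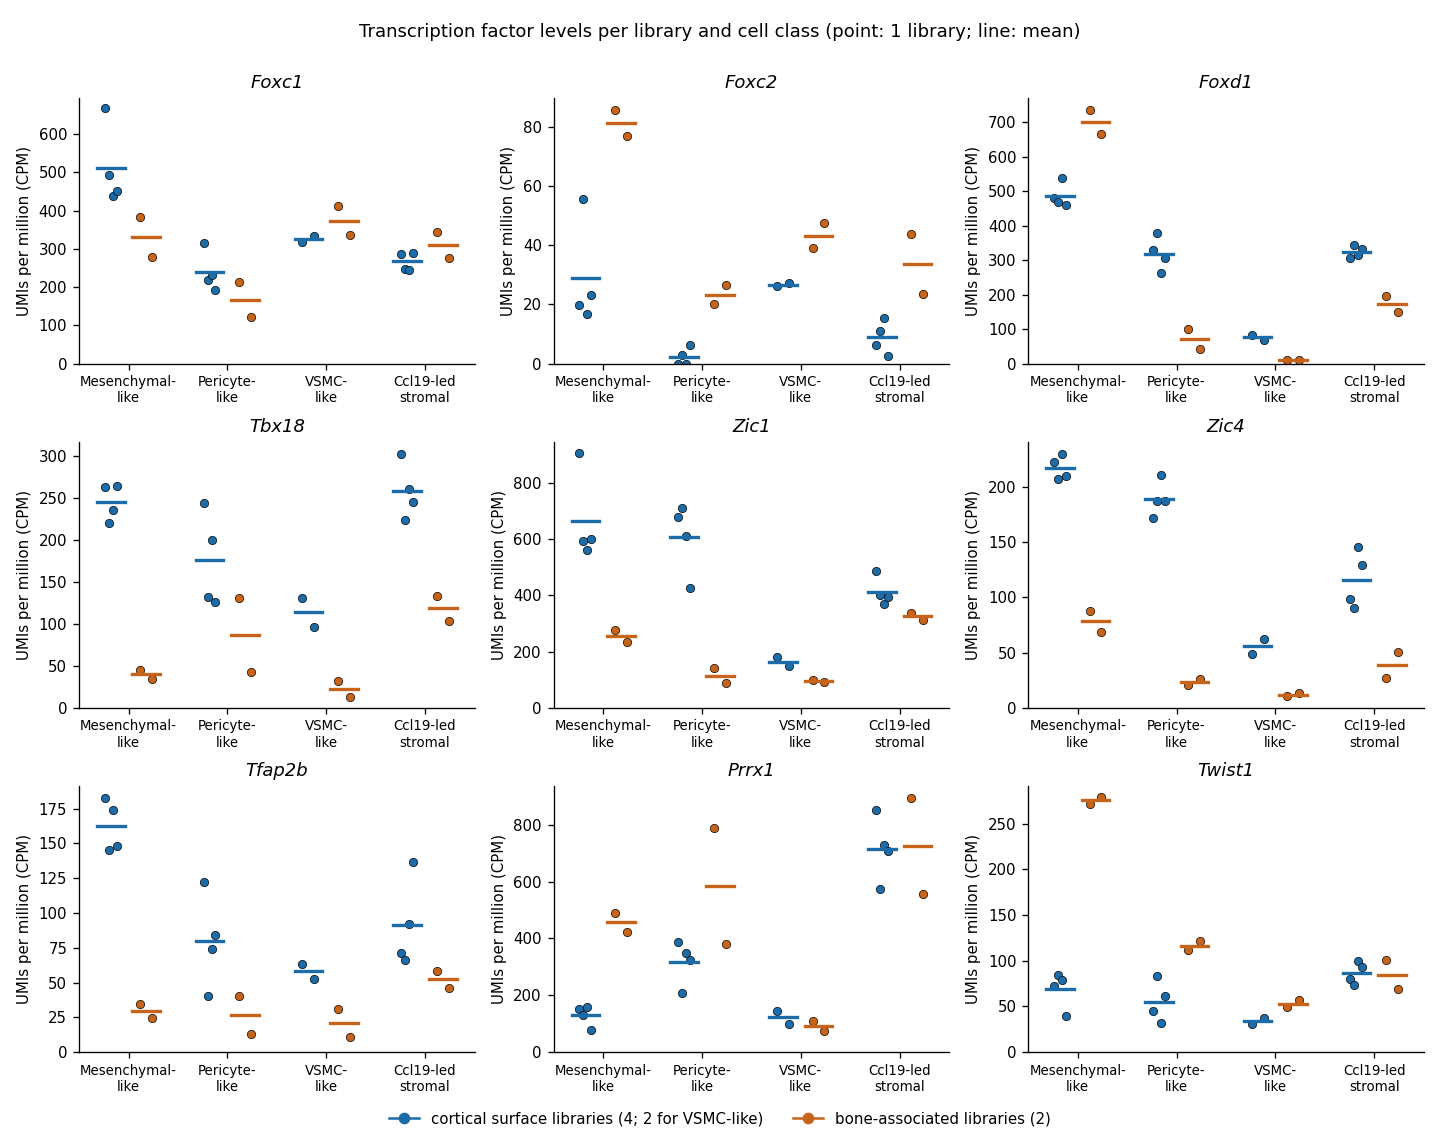
Level of each factor (y axis, CPM, linear from 0) in mesenchymal-like, pericyte-like, VSMC-like and Ccl19-led stromal cells, with 1 point per library and a line at the mean of cortical surface (blue) and bone-associated (orange) libraries. Tbx18 stood at 220.0 to 265 CPM in leptomeningeal against 33.9 to 45.7 in dural cells, and Twist1 the other way at 38.9 to 84.0 against 272 to 279.

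The same dissections could then be compared in mural cells, which asks whether a difference was also present outside fibroblasts. In pericyte-like cells Foxd1, Zic1, Zic4 and Tfap2b were called higher in the cortical surface libraries and Foxc2 higher in the bone-associated ones. That is 4 of 9 higher at the cortical surface, where 1.99% of 6935 tested genes were, and 1 lower, where 4.05% were. In VSMC-like cells Foxd1, Tbx18, Zic4 and Tfap2b were called higher at the cortical surface, 4 of 9 against 2.25% of 8347 tested genes, where 4.06% were called lower. All 9 entered both tests, but Foxc2 in pericyte-like cells passed the filter on low values only through the bone-associated group, and Tfap2b there and Foxd1 in VSMC-like cells only through the cortical surface group. For these 3 a difference was built into passing, and with no filter on low values Foxc2 was not called (log2 fold change -2.92, adjusted p = 0.0608) while Tfap2b was (log2 fold change 1.74, adjusted p = 0.0304).

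Foxd1 did not pass the test in fibroblasts and was called in both mural classes, though in VSMC-like cells it entered only through the cortical surface group. In pericyte-like cells it was at 328, 378, 263 and 307 CPM in the cortical surface libraries and at 101 and 42.4 CPM in the bone-associated ones. No cortical surface library came near the bone-associated pair (log2 fold change 2.33, SE 0.35, adjusted p = 2.28e-05), whose level rests on 26 UMIs. The value was 1.65 without bone-associated library 2 and 4.99 with cells thinned to 1500 UMIs, called both times. VSMC-like cells had 83.6 and 67.7 CPM at the cortical surface and 10.5 and 10.7 CPM in the bone-associated libraries, again without overlap (log2 fold change 2.69, SE 0.31, adjusted p = 1.90e-07). With no filter on low values it was called too (log2 fold change 2.67, adjusted p = 1.41e-13), and thinned it was 3.85.

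The 2 Zic genes followed their fibroblast direction. Pericyte-like cells had Zic1 at 678, 709.8, 611 and 426 CPM in the cortical surface and 141 and 87.5 CPM in the bone-associated libraries, with every cortical surface value far above the pair (log2 fold change 2.40, SE 0.33, adjusted p = 5.61e-06). Zic4 in the same cells was at 172, 188, 211 and 187 CPM against 20.2 and 26.5 CPM, from 174 and 12 UMIs (log2 fold change 2.75, SE 0.39, adjusted p = 9.67e-06). Zic4 was separate in VSMC-like cells as well, at 48.7 and 62.4 CPM against 10.5 and 13.1 CPM (log2 fold change 2.12, SE 0.32, adjusted p = 1.67e-05). VSMC-like Zic1 was 180.3 and 149 CPM against 99.5 and 92.8 CPM, a gap that did not pass the test (log2 fold change 0.64, SE 0.24, adjusted p = 0.0901). The Zic4 call in pericyte-like cells was lost when cells were thinned to 1500 UMIs (log2 fold change 1.61, adjusted p = 0.160).

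Tbx18 in VSMC-like cells was at 132 and 96.5 CPM at the cortical surface and 31.5 and 13.1 CPM in the bone-associated libraries (log2 fold change 2.23, SE 0.31, adjusted p = 4.50e-06), and at 2.94 without bone-associated library 1. In pericyte-like cells the groups overlapped, at 244, 133, 200.2 and 126 CPM against 131 and 42.4 CPM, and the difference did not pass (log2 fold change 1.19, SE 0.39, adjusted p = 0.0625). Leaving out cortical surface library 2 (log2 fold change 1.31, adjusted p = 0.0194) or bone-associated library 1 (log2 fold change 1.78, adjusted p = 0.00752) made it a call.

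Tfap2b was sparse in mural cells. Pericyte-like cells had 122, 40.4, 73.7 and 84.0 CPM at the cortical surface and 40.4 and 13.3 CPM in the bone-associated libraries, the latter from 9 UMIs, and the groups just touched (log2 fold change 1.81, SE 0.55, adjusted p = 0.0420). This call did not hold without cortical surface library 1 (log2 fold change 1.56, adjusted p = 0.134), without cortical surface library 4 (log2 fold change 1.71, adjusted p = 0.0955) or without bone-associated library 2 (log2 fold change 0.89, adjusted p = 0.660). With the replicate number as a block (log2 fold change 1.47, adjusted p = 0.0755) with doublets kept (log2 fold change 0.58, adjusted p = 0.704), with at least 1000 genes per cell (log2 fold change 0.65, adjusted p = 0.669) and with the listed factors allowed into the clustering (log2 fold change 0.68, adjusted p = 0.569) it was lost too. In VSMC-like cells Tfap2b was 63.2 and 52.6 CPM against 30.9 and 10.7 CPM (log2 fold change 1.36, SE 0.33, adjusted p = 0.00491). The call was lost without bone-associated library 2 (log2 fold change 0.82), and the value was 2.25 without library 1. It was also lost with cells of up to 20% mitochondrial UMIs (log2 fold change 0.86, adjusted p = 0.108). With DESeq2 in place of edgeR it was lost too (log2 fold change 1.36, adjusted p = 0.0515).

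Foxc2 in pericyte-like cells rested on 3 UMIs in the 4 cortical surface libraries, at 0, 2.89, 0 and 6.46 CPM, and 12 in the bone-associated ones, at 20.2 and 26.5 CPM. The bone-associated level was 7.82 times the other, with a 95% exact counting interval of 2.11 to 43.2 that covers counting error only. The edgeR call (adjusted p = 0.0390) was lost when any 1 library other than cortical surface library 4 was left out, with adjusted p from 0.0518 to 0.513, and with the replicate number as a block (log2 fold change -3.46, adjusted p = 0.101). With cells of up to 20% mitochondrial UMIs the call was lost too (log2 fold change -0.70, adjusted p = 0.654), as with doublets kept (log2 fold change -1.94, adjusted p = 0.264), and without cortical surface library 4 it held (log2 fold change -3.68, adjusted p = 0.0390). Foxc2 in VSMC-like cells, at 26.2 and 27.3 CPM against 38.9 and 47.6 CPM, was not called (log2 fold change -0.81, SE 0.29, adjusted p = 0.0713).

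Prrx1, Twist1 and Foxc1 were called in neither mural class. Pericyte-like Prrx1 was 389, 208, 348 and 323 CPM at the cortical surface and 788 and 382 CPM in the bone-associated libraries (log2 fold change -0.93, SE 0.28, adjusted p = 0.0408), under the fold limit, and passed it without bone-associated library 2 (log2 fold change -1.37, adjusted p = 0.00895). Twist1 in those cells was 44.5, 83.7, 31.6 and 61.4 CPM against 111 and 122 CPM (log2 fold change -1.06, SE 0.36, adjusted p = 0.0772), and was called only when cortical surface library 2 was left out (log2 fold change -1.35, adjusted p = 0.0213). In VSMC-like cells the log2 differences were 0.27 for Prrx1, -0.74 for Twist1 and -0.32 for Foxc1, with adjusted p from 0.0992 to 0.647. Foxc1 in pericyte-like cells differed by 0.52 on the log2 scale (adjusted p = 0.412).

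Fibroblast markers also differed between the mural groups. The 8 mesenchymal markers summed to 643 to 989 CPM in cortical surface and 2028 to 2435 CPM in bone-associated pericyte-like sums, with 6 to 8 of the 8 above 0. Dcn, Lum and Islr alone gave 29.1 to 86.6 and 109 to 152 CPM, and Pdgfra was at 0 in all 6. In the bone-associated group, which had more of these markers, Foxd1, Zic1 and Zic4 were lower, while Foxc2 and Twist1 were higher in both libraries than in any cortical surface library. The part of these cells in the differences was not tested. In VSMC-like sums the list was at 462 to 551 and 424 to 449 CPM. The tissue, the dissection and the library cannot be told apart in any of the 3 classes.

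**Figure D2:**
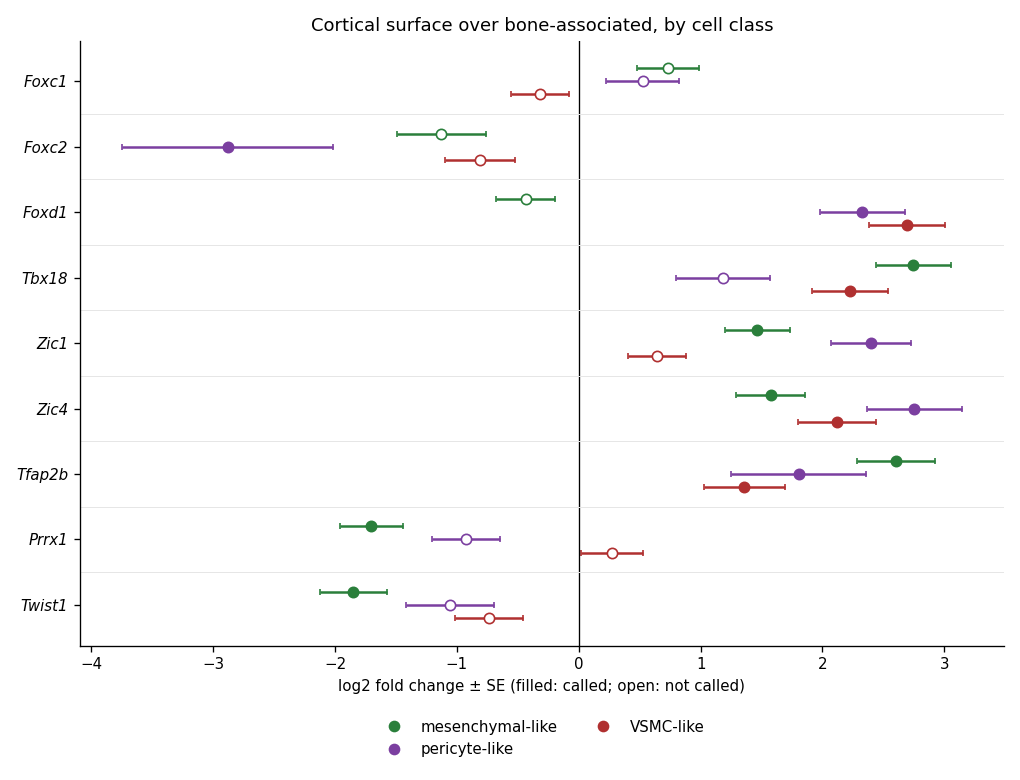
Log2 fold change of each factor, cortical surface over bone-associated (x axis, bars 1 SE), in mesenchymal-like, pericyte-like and VSMC-like cells, filled where called. Foxd1 was at -0.44 in mesenchymal-like cells but at 2.33 and 2.69 in the mural classes, while Zic4 and Tfap2b lay above 0 in all 3.

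Within a library, mesenchymal-like cells could be set against the mural cells of the same mice and the same run. In the cortical surface libraries Foxc1, Foxc2 and Tfap2b were called higher in mesenchymal-like than in pericyte-like cells, 3 of 9 against 11.6% of 7885 tested genes. In the bone-associated libraries the called ones were Foxc2, Foxd1, Zic1, Zic4 and Twist1, 5 of 9 against 9.73% of 9524. Against VSMC-like cells, Foxd1, Zic1 and Zic4 were called in the cortical surface libraries, 3 of 9 against 13.1% of 8942, and Foxd1, Zic4, Prrx1 and Twist1 in the bone-associated libraries, 4 of 9 against 15.7% of 9719. Each of these calls pointed to mesenchymal-like cells, while 7.98%, 6.55%, 13.2% and 12% of tested genes were called higher in the mural class of the same 4 comparisons. Foxc2 at the cortical surface and Foxd1 against bone-associated VSMC-like cells passed the filter on low values only through the class where they were higher, and both calls held with no filter (log2 fold change 3.70, adjusted p = 8.16e-08 for Foxc2 and log2 fold change 5.73, adjusted p = 5.11e-85 for Foxd1).

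Foxd1 in the bone-associated libraries went from 10.5 and 10.7 CPM in VSMC-like cells to 734 and 665 CPM in dural cells (log2 fold change 5.69, SE 0.26, adjusted p = 2.05e-101). Over pericyte-like cells it was 3.68 (SE 0.29, adjusted p = 3.51e-34), from 26 UMIs in 9 pericyte-like cells. With cells thinned to 1500 UMIs the fold changes were 6.77 over VSMC-like and 6.22 over pericyte-like cells. These, and the thinned interactions below, rest on very few Foxd1 UMIs in bone-associated mural cells, so their size is uncertain. In a separate thinning 4 of 267 VSMC-like and 4 of 74 pericyte-like cells there held Foxd1. In the cortical surface libraries Foxd1 was still called over VSMC-like cells (log2 fold change 2.51, SE 0.20, adjusted p = 2.48e-34), but over pericyte-like cells it was under the fold limit (log2 fold change 0.85, SE 0.16, adjusted p = 1.47e-06). The interaction term of class and preparation was past the threshold for Foxd1 against both mural classes, at -2.83 for pericyte-like (SE 0.35, adjusted p = 1.92e-13) and -3.18 for VSMC-like cells (SE 0.34, adjusted p = 2.22e-18), and thinned at -5.54 and -4.27.

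The interaction, which is the fibroblast over mural difference at the cortical surface minus that in the bone-associated libraries, passed for 3 of 9 factors with pericyte-like cells, 1 positive against 3.61% and 2 negative against 3.93% of 9816 genes, and for 5 with VSMC-like cells, 2 positive against 5.48% and 3 negative against 7.32% of 10137. Prrx1 had a fibroblast excess over VSMC-like cells in the bone-associated libraries (log2 fold change 2.02, SE 0.19, adjusted p = 1.68e-24) and none that passed at the cortical surface (log2 fold change -0.03, SE 0.19, adjusted p = 0.930), and the interaction was -2.04 (adjusted p = 4.31e-12), and -2.71 with thinned cells. Twist1 had an excess in the bone-associated libraries (log2 fold change 2.03, SE 0.20, adjusted p = 7.61e-24) and a smaller one, under the fold limit, at the cortical surface (log2 fold change 0.96, SE 0.24, adjusted p = 1.60e-04), with an interaction of -1.07 (adjusted p = 0.00666). Foxc1 was higher in fibroblasts than in VSMC-like cells at the cortical surface by 0.60 and lower in the bone-associated libraries, at -0.53 on the log2 scale, both under the fold limit, and its interaction was 1.13 (adjusted p = 4.59e-04).

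Tbx18 had an interaction of 1.46 with pericyte-like cells (adjusted p = 0.00698), lost without bone-associated library 1 (log2 fold change 1.13, adjusted p = 0.247) and with thinned cells (log2 fold change 0.41, adjusted p = 0.886), and at 2.10 without bone-associated library 2. Zic1 had interactions of -0.95 with pericyte-like (adjusted p = 0.0493) and 0.93 with VSMC-like cells (adjusted p = 0.0104), opposite in sign. The first was lost without cortical surface library 2 (log2 -0.74), cortical surface library 3 (-0.94) or either bone-associated library (-1.02 and -0.80), with adjusted p from 0.0688 to 0.596. The second was lost without cortical surface library 1 (log2 fold change 0.83, adjusted p = 0.168) or either bone-associated library (log2 fold change 1.01, adjusted p = 0.0502 without library 1, log2 fold change 0.85, adjusted p = 0.198 without library 2). The Foxc1 interaction was lost without cortical surface library 1 (log2 fold change 0.84, adjusted p = 0.142) or bone-associated library 2 (log2 fold change 1.03, adjusted p = 0.0503), and that of Twist1 without cortical surface library 2 (log2 fold change -1.03, adjusted p = 0.160) or bone-associated library 1 (log2 fold change -0.99, adjusted p = 0.0838).

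Foxc2 and Tfap2b separated leptomeningeal cells from pericyte-like cells of the same libraries. Foxc2 had 91 UMIs in leptomeningeal against 3 in pericyte-like cells, a ratio of levels of 12.7 with a 95% exact counting interval of 4.21 to 62.7 (log2 fold change 3.68, SE 0.63, adjusted p = 4.43e-08). It stayed called at 1.39 with cells of up to 20% mitochondrial UMIs, 3.07 without cortical surface library 2 and 4.71 without library 4. Tfap2b went from 122, 40.4, 73.7 and 84.0 CPM in pericyte-like to 183, 145, 174 and 148 CPM in leptomeningeal cells, without overlap (log2 fold change 1.41, SE 0.23, adjusted p = 9.55e-09). Its call was lost under the fold limit without cortical surface library 2 (log2 fold change 1.13, adjusted p = 5.46e-04). The same happened with cells of up to 20% mitochondrial UMIs (log2 fold change 1.295) and with thinned cells (log2 fold change 1.16, adjusted p = 0.00979). Foxc1 was also higher in leptomeningeal cells (log2 fold change 1.42, SE 0.18, adjusted p = 1.21e-14). With cells thinned to 1500 UMIs it fell under the fold limit (log2 fold change 1.24, adjusted p = 1.08e-06). Prrx1 was lower in leptomeningeal than in pericyte-like cells in each of the 4 libraries, by less than the fold limit (log2 fold change -0.87, SE 0.19, adjusted p = 2.02e-05). Fold changes include the scaling between sums (TMM, see processing) and CPM values do not. Between classes the tested changes can therefore differ from ratios of the printed CPM. Calls near the fold limit can depend on that scaling.

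In the bone-associated libraries the remaining fibroblast calls over pericyte-like cells were Zic1 (log2 fold change 1.39, SE 0.28, adjusted p = 1.23e-05), Zic4 (log2 fold change 1.63, SE 0.41, adjusted p = 6.09e-04), Foxc2 (log2 fold change 1.75, SE 0.42, adjusted p = 2.86e-04) and Twist1 (log2 fold change 1.32, SE 0.25, adjusted p = 1.78e-06). Without bone-associated library 2, which leaves 1 library of that kind whose spread is taken from the others, Zic1, Zic4 and Foxc2 were not called, with adjusted p from 0.0670 to 0.0948 and log2 fold changes of 1.23, 2.36 and 2.33. Twist1 was not called without bone-associated library 1 (log2 fold change 1.22, adjusted p = 0.00120). Over VSMC-like cells Zic4 (log2 fold change 2.32, SE 0.28, adjusted p = 1.61e-15) was called in the bone-associated libraries, and Zic1 (log2 fold change 2.00, SE 0.19, adjusted p = 7.92e-24) and Zic4 (log2 fold change 1.70, SE 0.20, adjusted p = 3e-17) in the cortical surface libraries.

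Pericyte-like and VSMC-like cells also differed from each other. At the cortical surface Foxd1 (log2 fold change 1.66, SE 0.21, adjusted p = 1.93e-13) and Zic1 (log2 fold change 1.57, SE 0.20, adjusted p = 4.85e-14) were called higher in pericyte-like cells and Foxc2 higher in VSMC-like cells, where it had 92 UMIs against 3 (ratio of levels 8.33, 95% exact counting interval 2.76 to 41.1). Foxc2 entered this test only through VSMC-like cells. Its call held with no filter on low values (log2 fold change -3.37, adjusted p = 7.71e-06) and was lost with cells of up to 20% mitochondrial UMIs (log2 fold change -0.82, adjusted p = 0.0971), and its log2 fold change was -2.74 without cortical surface library 1 and -4.35 without library 4. The calls were 2 higher against 5.93% and 1 lower against 10.5% of 8207 genes. In the bone-associated libraries Prrx1 (log2 fold change 2.10, SE 0.22, adjusted p = 1.82e-20), Foxd1 (log2 fold change 2.01, SE 0.45, adjusted p = 7.32e-05) and Tbx18 (log2 fold change 1.3, SE 0.38, adjusted p = 0.00385) were called higher in pericyte-like cells and Foxc1 higher in VSMC-like cells (log2 fold change -1.72, SE 0.26, adjusted p = 3.09e-10), 3 against 7.12% and 1 against 9.85% of 8150 genes. Foxd1 in the bone-associated libraries entered only through pericyte-like cells, held with no filter (log2 fold change 1.94, adjusted p = 6.94e-04) and was 2.66 without bone-associated library 2. The Tbx18 call stood at the fold limit and was lost without either bone-associated library (log2 fold change 1.31, adjusted p = 0.0814 without library 1, log2 fold change 1.47, adjusted p = 0.0577 without library 2).

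**Figure D3:**
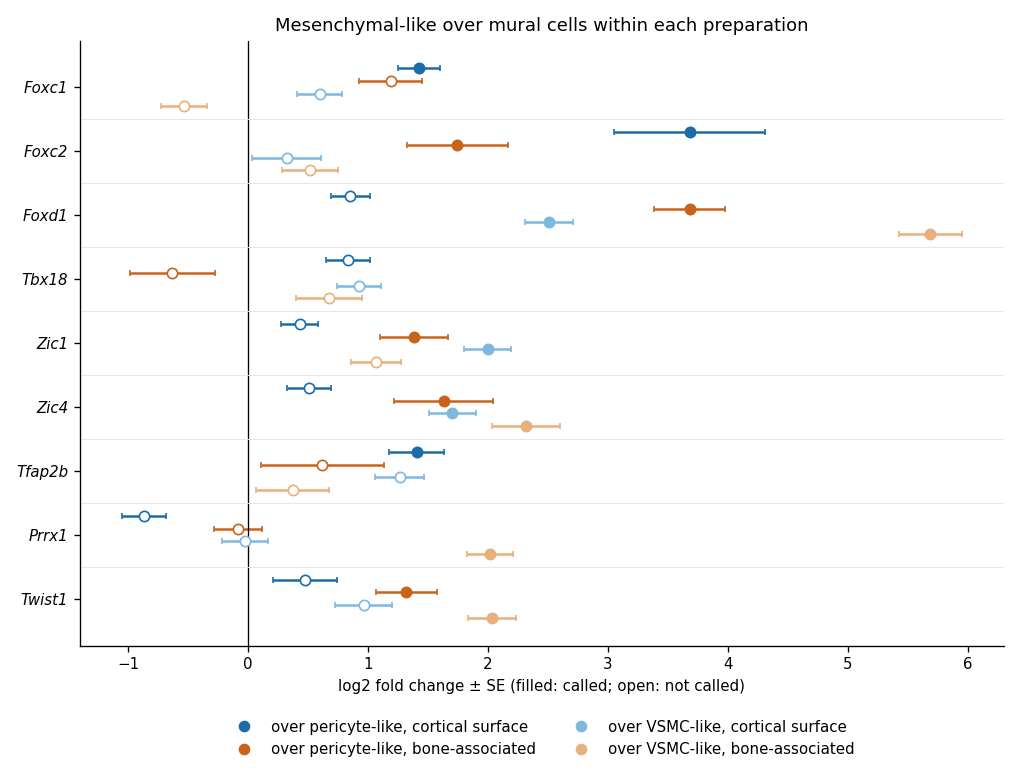
Log2 fold change of each factor in mesenchymal-like over mural cells of the same libraries (x axis, bars 1 SE), filled where called, with cortical surface comparisons in blue and bone-associated ones in orange, dark over pericyte-like and light over VSMC-like cells. Foxd1 ran from 0.85 over cortical surface pericyte-like cells to 5.69 over bone-associated VSMC-like cells, and Prrx1 was at -0.87 and 2.02 in the same 2 comparisons.

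The share of cells with at least 1 UMI moved with the levels. Because depth differed, each cell was thinned to 1500 UMIs, which left out 13 leptomeningeal, 3 dural, 8 and 1 pericyte-like and 2 and 2 VSMC-like cells. Tbx18 was then found in 24.5% (95% exact interval 19.3 to 30.3%) of leptomeningeal and 5.38% (95% exact interval 3.04 to 8.71%) of dural cells, where the unthinned shares were 75.9% and 28.4%. Twist1 was in 11.1% (95% exact interval 7.48 to 15.6%) of leptomeningeal and 31.9% (95% exact interval 26.5 to 37.7%) of dural cells, unthinned 38.3% and 90.1%. The 2 cell groups thus kept the order of the CPM values for both genes.

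Foxd1 was in 50.6% (95% exact interval 44.3 to 56.9%) of leptomeningeal and 57.0% (95% exact interval 51.0 to 62.9%) of dural cells, unthinned 86.8% and 94.3%. In pericyte-like cells it was in 40.0% (95% exact interval 33.5 to 46.7%) at the cortical surface and 5.41% (95% exact interval 1.49 to 13.3%) in the bone-associated libraries, unthinned 64.8% and 12%. Zic1 was found in leptomeningeal cells at a share of 61.7% (95% exact interval 55.4 to 67.7%) and in cortical surface pericyte-like cells at 52.9% (95% exact interval 46.1 to 59.6%), unthinned 94.4% and 82.8%. Intervals cover counting error of cells pooled over libraries and not the spread between libraries.

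T or NK cell-like cells, assumed not to use these genes, were taken as a reference for background, and free RNA itself was not measured. At a median of 6261 and 6125 UMIs per cell in the cortical surface and bone-associated libraries, no factor was found in more than 0.685% of them unthinned, against medians of 7589 and 14796.5 UMIs in mesenchymal-like, 3742 and 5979 in pericyte-like and 12746 and 12027 in VSMC-like cells. Thinned, 1 of 437 and 2 of 607 such cells had a UMI of any factor. Other cortical surface classes stood higher: border macrophage-like cells (median 8067 UMIs) held Foxc1 in 8.32%, Zic1 in 8.88% and Foxd1 in 5.27% unthinned, and red blood cell barcodes (median 14526 UMIs) held Foxc1 in 9.63% and Zic1 in 8.89%. Among the 9 factors the share in these 2 classes ran from 0.741% to 9.63%. Foxc2 in cortical surface pericyte-like cells was at 1.29% unthinned, at a median of 3742 UMIs. Border macrophage-like cells had it in 1.11% at a median of 8067 UMIs, and T or NK cell-like cells of the cortical surface in 0%. Whether the Foxc2 UMIs of those pericyte-like cells came from free RNA was not tested.

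Single cells often held several of the factors at once. With 1500 UMIs per cell, 54.5% of leptomeningeal and 40.1% of dural cells had at least 3 of the 9, and 4.74% and 9.32% had none. Pericyte-like cells had at least 3 in 37.8% at the cortical surface and 10.8% in the bone-associated libraries. For VSMC-like cells the shares were 10.3% and 3%.

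**Figure D4:**
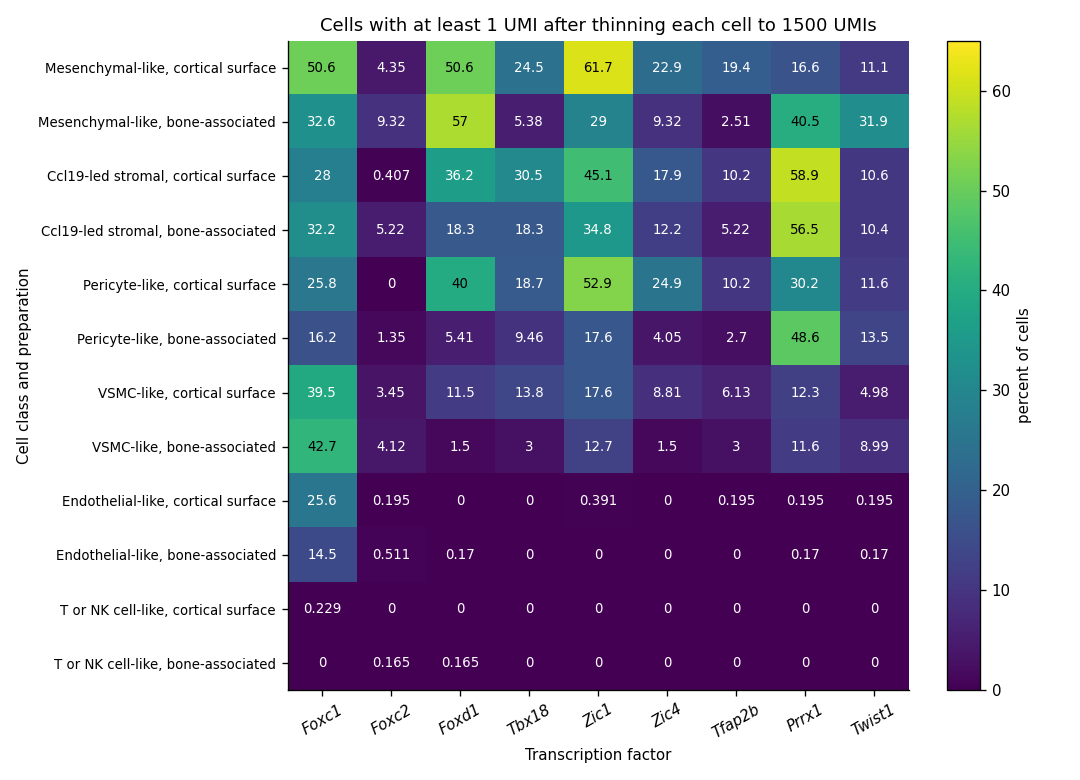
Percent of cells with at least 1 UMI of each factor (columns) after thinning to 1500 UMIs, by cell class and preparation (rows), printed in each square and coloured from 0. Endothelial-like cells held Foxc1 in 25.6% and 14.5% and any other factor in at most 0.511% of cells, and T or NK cell-like cells held each in at most 0.229%.

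A stromal cluster in each preparation, with 247 cortical surface and 115 bone-associated cells, was led by Ccl19 and Colec11 and carried markers of more than 1 class. A rule of its own set it apart before naming, because Ccl19, Colec11 and Il34 all led it. All 5 pericyte markers also led it at the cortical surface, and all but Art3 in the bone-associated libraries. Its cells are not among the pericyte-like cells. Pdgfra was at most 2.09 CPM and Pdgfrb 1214 to 1404 and 508 to 636 CPM in it. All 9 factors were found there, with Prrx1 at 853, 574, 730.0 and 707 CPM in the cortical surface and 895 and 556 CPM in the bone-associated libraries, above every mesenchymal-like library of the matching preparation. The 2 preparations overlapped for Prrx1 and for Twist1 (73.6 to 99.9 against 68.5 to 100.4 CPM). For Foxd1 they did not, at 305, 344, 315 and 333 CPM against 197 and 149 CPM, nor for Tbx18 at 303, 224, 261 and 245 CPM against 134 and 104 CPM. No test was set for this cluster, and the share of all genes without overlap in it is not given here.

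The bone-associated mesenchymal-like cells, called dural here, formed 2 clusters. Comp, a matrix gene, led the first (20 and 172 cells in libraries 1 and 2) and Apod the second (11 and 79 cells). H19, Matn4 and Clec11a, dural markers in the paper, were among the top genes of the Comp-led cluster only. The Apod-led cluster shared Dcn, Lum and Clec3b with the leptomeningeal cluster. It also had Aldh1a2, which the paper names for the developing leptomeninges. Whether the Apod-led cells are dural was not tested. The factors were not level between the 2 clusters. Tfap2b was at 10.9 and 12.7 CPM in the Comp-led and 87.6 and 54.7 CPM in the Apod-led cells. The values also lay apart for Foxd1 (867 and 707 against 432 and 557 CPM), Prrx1 (585 and 447 against 275 and 358 CPM) and Twist1 (276 and 310.4 against 263 and 199 CPM), each higher in the Comp-led cells. Zic1 (331 and 238 against 156 and 228 CPM), Zic4 (98.4 and 73.0 against 62.6 and 58.5 CPM) and Foxc2 (93.0 and 80.5 against 68.8 and 67.9 CPM) lay apart in the same direction, and Foxc1 and Tbx18 overlapped. Even in the Apod-led cells Tfap2b was under each leptomeningeal library, and Prrx1 and Twist1 above each. These values are a description, with few cells in library 1. The share of all genes that lie apart between the 2 clusters is not given here, so lying apart is no result about the factors.

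Ordered by mean level over the 8 combinations of class and preparation, Ccl19-led cells included, the factors fell into different patterns. Foxd1 ran from dural to leptomeningeal cells, which did not overlap, then to the cortical surface Ccl19-led and pericyte-like cells, which did, and ended with bone-associated VSMC-like cells. Zic1 and Zic4 were both highest in leptomeningeal cells, with cortical surface pericyte-like cells next and overlapping for each, and both lowest in bone-associated VSMC-like cells. Tbx18 was highest in cortical surface Ccl19-led cells, overlapping with leptomeningeal cells, and Tfap2b in leptomeningeal cells, above all others. Prrx1 was highest in the Ccl19-led cells of either preparation, overlapping with bone-associated pericyte-like cells. Twist1 and Foxc2 were highest in dural cells, apart from the rest. Foxc1 was highest in leptomeningeal cells, and the 7 groups below overlapped each with the next.

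The genes most alike to each factor across 16 sums of mesenchymal-like, pericyte-like and VSMC-like cells per library, by Pearson's r of log2(CPM + 1) over 11125 genes, included other members of the set. These sums share libraries and are not independent, so r is a description. Zic1 was most like Zdhhc6 (r = 0.952), Zic4 (r = 0.947) and 2700046A07Rik (r = 0.931), and Zic4 like Zic1 (r = 0.947), Cgnl1 (r = 0.942) and Tnfrsf19 (r = 0.919). Tbx18 was most like Cdip1 (r = 0.920), Tfap2b (r = 0.916) and Pnisr (r = 0.911), and Tfap2b like Carf (r = 0.932), Tbx18 (r = 0.916) and Zic2 (r = 0.902). For Foxd1 the genes were Spock2 (r = 0.949), Srpr (r = 0.933) and Pid1 (r = 0.923), for Prrx1 Nrp1 (r = 0.920), Pik3r1 (r = 0.914) and Amotl1 (r = 0.896) and for Twist1 Apobec3 (r = 0.946), Serpinh1 (r = 0.931) and Ltbp3 (r = 0.913). Foxc1 went with Sphk1 (r = 0.879), Bmp6 (r = 0.873) and Sept6 (r = 0.827) and Foxc2 with Pdgfd (r = 0.918), Gsn (r = 0.914) and Ank (r = 0.908).

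Related transcription factors were then read in the same comparison of leptomeningeal and dural cells. Their lists too were chosen with earlier results of these data known, so counts against the share of all genes are a description. Of 108 genes in 7 lists, 64 passed the filter on low values, 9 were called higher in leptomeningeal and 20 higher in dural cells, against 5.79% and 9.03% of all tested genes. Of these, 4 and 17 passed that filter only through the group where they were higher, so that a difference was built into passing, and with no filter 40 of the 108 genes were called. Their median log2 fold change was -0.69, and -0.69 with the 6 genes without any leptomeningeal UMI at their bound, where all tested genes had -0.02. The paired-type and other homeobox list had 10 of 15 tested genes called toward dural cells and 1 toward leptomeningeal cells. The skeletal and mesenchymal regulators had 8 and 1 of 20, the Twist-type genes 1 and 2 of 5, and the forkhead relatives 1 and 1 of 15. Among the Zic, T-box and AP-2 relatives, calls went toward leptomeningeal cells only, in 2 of 6, 1 of 2 and 1 of 1 tested genes. The uncalled ones lay toward dural cells. These were Gli1, Gli2, Gli3 and Glis2 of the Zic relatives (log2 fold change -0.93, -1.78, -0.70 and -1.14) and Tbx15 of the T-box relatives (-0.83). The median of the Zic relatives was -0.81.

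The 4 largest fitted changes toward leptomeningeal cells were in relatives of Tbx18, Tfap2b and the Zic genes, and Osr1. Tbx3, a T-box repressor, was at 77.4, 46.6, 89.7 and 15.6 CPM in leptomeningeal and 0 and 1.07 CPM in dural libraries (log2 fold change 5.87, SE 0.63, adjusted p = 9.04e-08). Tfap2a, the AP-2 relative of neural crest, was at 44.5, 25.2, 22.4 and 0 against 1.90 and 2.67 CPM, with library 4 at 0 and overlapping (log2 fold change 3.43, SE 0.59, adjusted p = 7.83e-05). Osr1, a zinc-finger factor of embryonic mesenchyme, was at 229, 245, 89.7 and 101 against 30.4 and 13.9 CPM (log2 fold change 3.31, SE 0.42, adjusted p = 1.22e-06). Zic2 was at 423, 331, 465 and 265 against 79.9 and 41.9 CPM, the same direction as Zic1 and Zic4 (log2 fold change 2.79, SE 0.33, adjusted p = 3.60e-07). Zic2 was also called higher at the cortical surface in pericyte-like (log2 fold change 1.55) and VSMC-like cells (1.57). Tfap2a was called so in VSMC-like (log2 fold change 2.94) but not in pericyte-like cells (1.91, adjusted p = 0.195). Tbx3 was called in neither mural class (log2 fold change 0.73 and 0.16).

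Toward dural cells the 4 largest fitted changes were in genes of bone, skull and tendon mesenchyme without any UMI in leptomeningeal cells. Each of them, and Tbx3 and Tfap2a above, passed the filter on low values through 1 group only. The bound takes 3 UMIs over the 2223361 UMIs of that group, or 1.35 CPM. Dlx5, an osteoblast homeobox gene, had 45.7 and 32.9 CPM in the 2 dural libraries, at least 25.5-fold higher (adjusted p = 8.41e-07). Msx2, which acts in skull bone growth, had 22.8 and 34.2 CPM, at least 24.3-fold higher (adjusted p = 3.16e-06). Meox2, a mesoderm homeobox gene, had 22.8 and 24.3 CPM, at least 17.9-fold higher (adjusted p = 9.31e-06). Scx, the tendon factor related to Twist1, had 40.0 and 15 CPM, at least 13.4-fold higher (adjusted p = 4.73e-05). Mural cells shared part of this. Dlx5 was called higher in the bone-associated libraries in pericyte-like cells (log2 fold change -5.20). Meox2 was called so in pericyte-like (log2 fold change -7.75) and VSMC-like cells (-3.58), while Msx2 was not called in VSMC-like cells (-0.40). Which group let related factors pass the filter in mural cells is not given here.

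**Figure D5:**
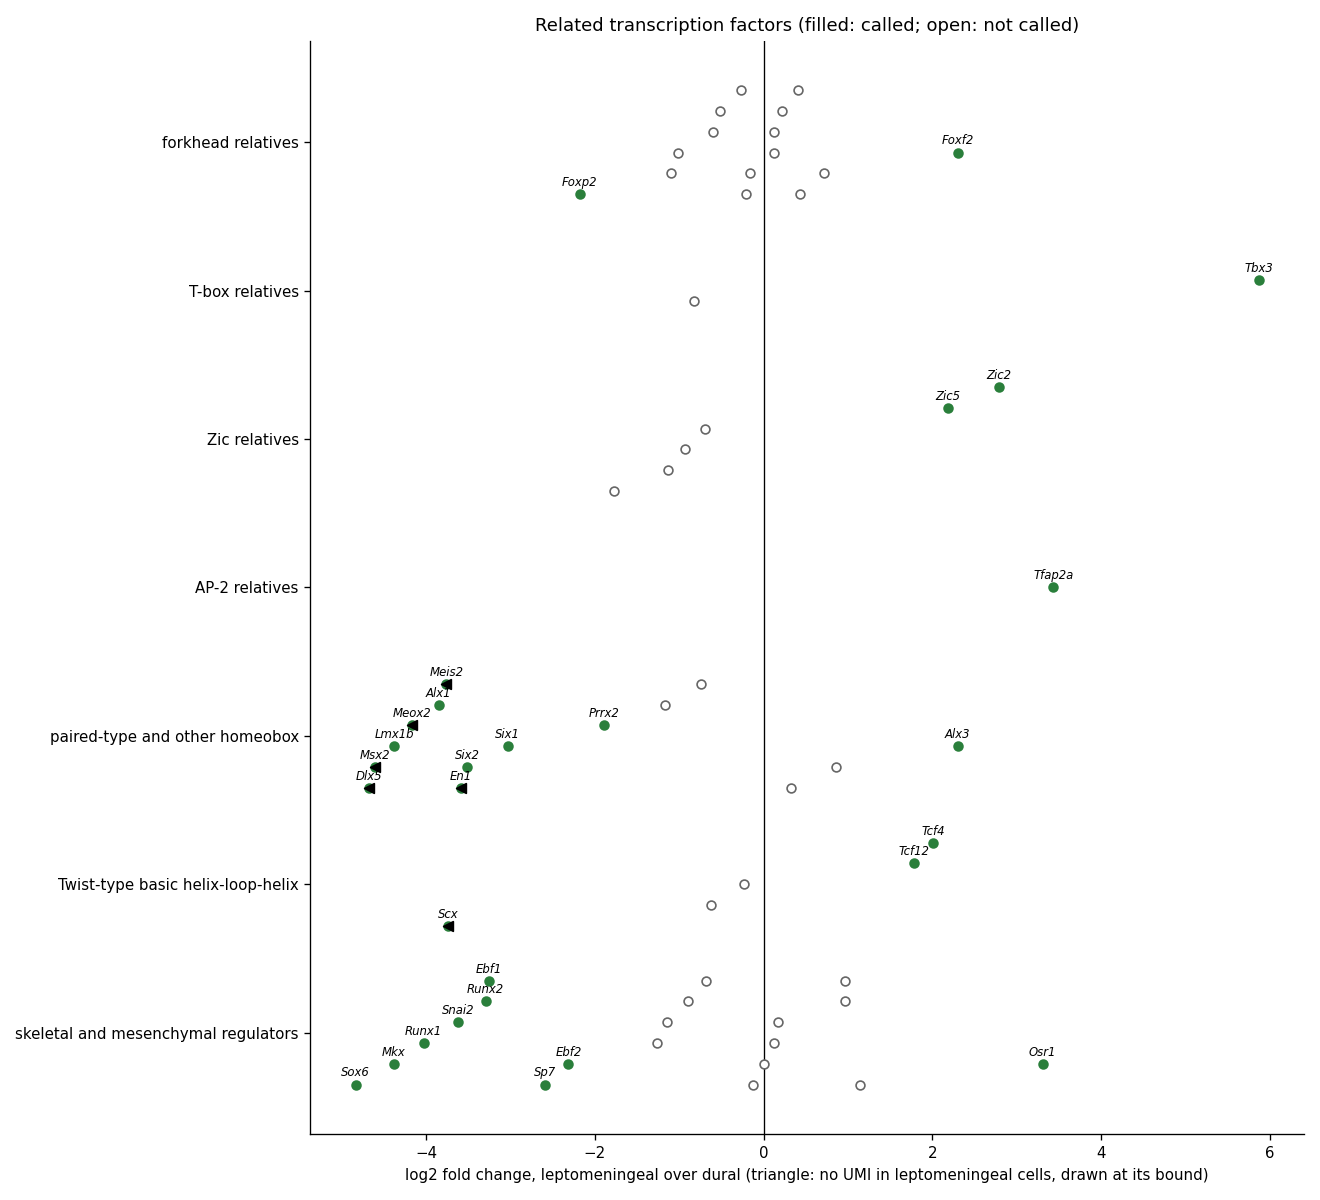
Log2 fold change, leptomeningeal over dural cells (x axis), of the 64 tested related transcription factors by list (rows), filled and named where called, with a triangle at the bound for the 6 genes without a leptomeningeal UMI. Homeobox and skeletal genes lie mostly left of 0 (toward dural cells), and Tbx3, Tfap2a, Zic2 and Zic5 to the right, at 5.87, 3.43, 2.79 and 2.19.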

How the data were processed

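For each library the authors deposited raw UMI counts by gene and barcode, which Cell Ranger had produced on the mm10 build. The submitters' processing notes list Cell Ranger 3 and the file headers version 6.1.2, and the strand setting is not given in the sources used here. The labels describe a papain dissociation and the paper's methods collagenase and dispase.

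A barcode was kept if it held 500 or more genes and no more than 10% mitochondrial UMIs, and 124 scored doublets (1.41%) were removed at 0.8% per 1000 cells. Each preparation was clustered on its own (2000 variable genes, 30 components, 15 neighbours, Leiden at resolution 1.5) without the 9 factors, the related factors, Pdgfra, Pdgfrb and Col1a1. Clusters are rebuilt, not the authors', and were named when at least 3 fixed markers led them. No correction for free RNA was made.

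UMIs were summed per library and class with at least 10 cells. A gene was tested if more than 10% of cells in one of the compared groups held a UMI of it, using edgeR 4.0.16 (R 4.3.3) by quasi-likelihood after TMM normalization, with library as a term for comparisons within libraries. Interactions needed an adjusted p under 0.05 with no minimum fold. SE is the log2 fold change divided by the root of F. The test shares the estimate of spread among genes, in part for the comparisons between preparations. In the model with library as a term it was shared in full. Very small p-values there do not measure how well the libraries agree for that gene alone. The script was tested on simulated data with the same spread for all genes. Of 100 genes changed 4-fold, it recovered 75 in leptomeningeal against dural cells. Between preparations it recovered 42 in pericyte-like and 64 in VSMC-like cells, and 23 for the interaction with pericyte-like cells. The changed genes were drawn from those found in mesenchymal-like cells. In pericyte-like and VSMC-like cells, changed genes under the filter on low values counted as not recovered. A factor not called in these comparisons may still differ. Comparisons of classes within a preparation were not simulated. All 9 members are named in every comparison, the 3 genes most alike to each (at least 50 UMIs), and of the called related factors the 4 largest changes each way. The members and lists were chosen with earlier results of these data known. Alternatives were DESeq2 1.42.0, upper-quartile scaling, other cell and gene filters, clusterings and depths, hemoglobin left out, each library left out, and the replicate number as a block.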

Additional observations from a re-analysis of the deposited data

Results flagged for a closer look

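Among 33 sets of 4 libraries with at least 20 UMIs of a factor, 2 had 1 library far from the others, where chance gives about 1 in 20. Foxc2 in leptomeningeal cells of library 2 was at 55.8 CPM, and the other 3 libraries had 12, 3 and 3 UMIs. Zic1 in leptomeningeal cells of library 1 was at 905 CPM.

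In the main setting the difference between mesenchymal-like and mural cells was called as differing between the preparations in 8 tests. On the log2 scale, cortical surface minus bone-associated, it was 1.46 for Tbx18, -0.95 for Zic1 and -2.83 for Foxd1 with pericyte-like cells. With VSMC-like cells it was -2.04 for Prrx1, 0.93 for Zic1, 1.13 for Foxc1, -3.18 for Foxd1 and -1.07 for Twist1. Only those of Foxd1 and Prrx1 kept their call in all alternatives in which they were recomputed. Zic1 lost its call in 10 of 17 alternatives with pericyte-like and in 7 with VSMC-like cells. Twist1 lost it in 5, and Foxc1 and Tbx18 in 3 each.

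Some factors were found in cells outside the comparisons. Foxc1 was in 56.1% of cortical surface and 42.3% of bone-associated endothelial-like cells, at 123 to 223 and 109 to 175 CPM. Choroid plexus-like cells had Zic1 in 29.3% at the cortical surface (median 8201.5 UMIs per cell). In 13 very deep bone-associated choroid plexus-like cells (median 67678 UMIs over both libraries) Zic1 was in 76.9% and Zic4 in 61.5%. T or NK cell-like cells had a UMI of Foxc1, Zic1 or Zic4 in at most 0.685%.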

How the results depend on the processing

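Over up to 18 alternatives, factors called in the main comparisons kept direction and call in 684 of 755 recomputed values, and the other 71 kept the direction and lost the call. Thinning each cell to 1500 UMIs took some factors under the filter on low values, so that they were not tested. Zic4 and Tfap2b in VSMC-like cells of cortical surface against bone-associated libraries were among them. Such factors count as not called here and are not among the 755 values. In leptomeningeal against dural cells 6 factors were called in the main setting. With cells thinned to 1500 UMIs, which leaves fewer UMIs, the number called was 2 in place of 4 for VSMC-like cells of cortical surface against bone-associated libraries, 3 in place of 5 for mesenchymal over VSMC difference between preparations, 2 in place of 5 for mesenchymal-like against pericyte-like cells, bone-associated libraries, 1 in place of 3 for mesenchymal-like against pericyte-like cells, cortical surface libraries, 2 in place of 4 for pericyte-like against VSMC-like cells, bone-associated libraries, 2 in place of 5 for pericyte-like cells of cortical surface against bone-associated libraries and 13 in place of 29 for the related factors in leptomeningeal against dural cells. With DESeq2 in place of edgeR the number called was 3 in place of 5 for mesenchymal over VSMC difference between preparations and 3 in place of 5 for pericyte-like cells of cortical surface against bone-associated libraries. Without library as a term the number called was 2 in place of 5 for mesenchymal over VSMC difference between preparations and 1 in place of 3 for mesenchymal over pericyte difference between preparations. With cells of up to 20% mitochondrial UMIs the number called was 3 in place of 5 for pericyte-like cells of cortical surface against bone-associated libraries. With doublets kept the number called was 3 in place of 5 for pericyte-like cells of cortical surface against bone-associated libraries. Leaving out 1 library at a time gave 3 to 4 for VSMC-like cells of cortical surface against bone-associated libraries, 6 to 7 for leptomeningeal against dural cells, 3 to 5 for mesenchymal over VSMC difference between preparations, 2 to 3 for mesenchymal over pericyte difference between preparations, 4 to 4 for mesenchymal-like against VSMC-like cells, bone-associated libraries, 3 to 4 for mesenchymal-like against VSMC-like cells, cortical surface libraries, 2 to 5 for mesenchymal-like against pericyte-like cells, bone-associated libraries, 2 to 3 for mesenchymal-like against pericyte-like cells, cortical surface libraries, 3 to 4 for pericyte-like against VSMC-like cells, bone-associated libraries, 3 to 4 for pericyte-like against VSMC-like cells, cortical surface libraries, 3 to 6 for pericyte-like cells of cortical surface against bone-associated libraries and 28 to 31 for the related factors in leptomeningeal against dural cells. An arm left with 1 library took its spread from the others.

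The numbers 1 and 2 shared by the preparations are not tied to a common mouse or run by the labels. Deviations of same-numbered libraries correlated at 0.0493 to 0.352 over genes. With only 2 bone-associated libraries, each value recurs with the opposite sign for the other number. A pericyte-like pair with different numbers reached 0.0818, so the range cannot show whether equal numbers share mice or runs. With a block on the number 6 factors were called in leptomeningeal against dural cells, 3 in pericyte-like and 4 in VSMC-like cells, and 30 related factors. The cause of these changes was not tested. Upper-quartile scaling moved the median log2 fold change of all genes from -0.09 to 0.03 (cortical surface) and 0.04 to 0.18 (bone-associated) for mesenchymal-like over VSMC-like cells, and from -0.09 to 0.02 and -0.14 to 0.04 for pericyte-like over VSMC-like cells, with Prrx1 over cortical surface VSMC-like cells changing sign and the calls of Zic1 (interaction with pericyte-like cells) and Twist1 (bone-associated mesenchymal-like over pericyte-like) lost, and those of Tfap2b (over cortical surface VSMC-like cells) and Zic4 (cortical surface pericyte-like over VSMC-like) gained. Values that changed sign were all uncalled under both settings: Foxc2 in the interaction with pericyte-like cells (from 1.94 to -0.21), Zic4 in the interaction with pericyte-like cells (from -1.12 to 0.13), Twist1 in the interaction with pericyte-like cells (from -0.84 to 0.42), Foxc2 in the interaction with VSMC-like cells (from -0.20, -1.16 to 0.22 with 1 library left out), Tbx18 in the interaction with VSMC-like cells (from 0.25 to -0.94, -0.090 to 0.72 with 1 library left out), Tfap2b in bone-associated mesenchymal over pericyte-like cells (from 0.62 to -0.42, -0.55 and -0.38), Prrx1 in bone-associated mesenchymal over pericyte-like cells (from -0.08 to 0.14 and 0.028, -0.43 to 0.18 with 1 library left out), Foxc2 in cortical surface mesenchymal over VSMC-like cells (from 0.32, -0.65 to 0.79 with 1 library left out), Prrx1 in cortical surface mesenchymal over VSMC-like cells (from -0.03 to 0.015, 0.019 and 0.090, -0.13 to 0.047 with 1 library left out), Tfap2b in bone-associated mesenchymal over VSMC-like cells (from 0.37 to -0.21, -0.18 to 0.84 with 1 library left out), Tbx18 in cortical surface pericyte-like over VSMC-like cells (from 0.09, -0.013 to 0.19 with 1 library left out), Tfap2b in cortical surface pericyte-like over VSMC-like cells (from -0.14 to 0.19, -0.46 to 0.28 with 1 library left out), Zic1 in bone-associated pericyte-like over VSMC-like cells (from -0.32 to 0.16) and Tfap2b in bone-associated pericyte-like over VSMC-like cells (from -0.25 to 0.85, 0.92 and 0.80).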

Other observations

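Clusters with markers of both pericytes and VSMCs stayed unnamed and entered no comparison, 81 cells at the cortical surface and 153 in the bone-associated libraries. Sums were made where a library had at least 10, 19, 36 and 21 cells in cortical surface libraries 1, 2 and 4 and 51 and 102 in bone-associated libraries 1 and 2. Their levels of Foxd1 were 134, 122 and 149.6 CPM at the cortical surface and 8.98 and 13.7 CPM in the bone-associated libraries. Zic1 was at 444, 261 and 561 against 64.7 and 84.3 CPM, Zic4 at 118, 155 and 234 against 14.4 and 9.48 CPM, and Tbx18 at 134, 109 and 178 against 37.7 and 23.2 CPM, each without overlap. Twist1 lay the other way, apart only narrowly, at 112.2, 69.4 and 112.2 against 127.5 and 113.8 CPM. Prrx1 at 257, 165 and 168 against 208 and 173 CPM and Foxc1 at 262, 202 and 122 against 208 and 218 CPM did overlap. So did Tfap2b and Foxc2. How many of all genes show no overlap between these sums is not given here, so the gaps are a description only.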
